A study of Mus musculus with 39 samples.

Results

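The 36 genes described here are antiviral interferon-stimulated genes, and they were chosen from a fixed list of gene symbols covering the sensors, enzymes and effector proteins that cells make after type I interferon. All 36 were found in the deposited table of 39179 genes by their Ensembl identifier, and all 36 were among the 15070 genes that passed the filter on low counts and were tested. Their lowest counts were those of Oas1a, with 12 to 126 counts per library, Mx2, with 19 to 230, and Ifit3b, with 23 to 620. The annotation used lists Mx2 as a polymorphic pseudogene.

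RNA was measured in bulk tumours of a Braf-mutated melanoma in C57BL/6 mice. Tumour cells were grown in RPMI medium with serum and injected, the labels do not name the line, and treatment started at day 7 after injection. Mice received vehicle (DMSO-PEG400 in water), EPAT, anti-PD-1, or EPAT and anti-PD-1 together, called the combination below, for 2 or 5 days. EPAT are antagonists of EP2 and EP4, receptors for prostaglandin E2, given as 200 µl doses at 3 mg/mL and 30 mpk. Anti-PD-1, an antibody against an inhibitory receptor of T cells, was given at 200 µg per dose. The 8 groups had 5 libraries each except anti-PD-1 on day 2, which had 4, so 39 libraries in all. Nothing in the labels ties the libraries of a group to different animals, so a p-value here reflects only how these samples vary, which may be technical. In bulk tumours, fewer cells of a type and less RNA per cell cannot be told apart.

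Type I interferons bind the receptor pair IFNAR1 and IFNAR2, and the kinases JAK1 and TYK2 then activate transcription factors of the STAT family. With IRF9 these form a complex that binds the interferon-stimulated response element in the promoters of such genes. Many of the genes also respond to interferon-gamma, so their level does not identify the interferon. In tumours, type I interferon is known for activating dendritic cells and supporting the priming of T cells.

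Total counts ranged from 8385741 to 15558113 per library, with a median of 12193825. A single gene, Gm42418, held 1.9 to 12.9% of the counts of a library. On day 2 it held 7.99, 8.65, 3.09 and 7.88% in the anti-PD-1 libraries and 2.73, 6.99, 2.60, 3.34 and 3.47% in vehicle. Whether its share goes with the level of single genes of the set was not tested. Of 12 genes of the melanocytic lineage, 3 passed the filter on low counts, and Dct, Tyr, Tyrp1, Pmel and Mlana did not, so the tumour label rests on the submitters' word. Vehicle day 2 replicate 1 held 233.2 CPM of B cell and plasma cell markers against at most 6.223 in the other vehicle libraries of that day, and replicate 2 held 151.9 CPM of keratinocyte markers against at most 17.94. CPM are counts scaled to a common library total after TMM scaling, and replicates are numbered in accession order. Skeletal muscle markers ranged from 5.493 to 16160 CPM over all libraries.

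The response element was visible in the promoters. RefSeq windows of 300 bases on GRCm38.p6, from 250 bases before to 50 after the start of the gene, were at hand for 27 of the 36 genes. Isg20, Trim30a and Ifit2 had several windows, and a gene was counted when any of its windows held a match. The core of the element, GAAANNGAAA on either strand, occurred for 13 of the 27 genes (48.1%). The shares were 3.99% of the 27025 genes with a window and 3.92% of the 10957 tested genes with one. The gamma-activated site, TTCNNNGAA, occurred in 7 of the 27, against 9.55% of all genes with a window. Both were searched as letters, and a match is not a measured binding site. The following stretches, written 5′ to 3′ along the gene's strand with the cores in capitals, are those of some of the genes with a core.
Isg15, chr4:156200850-156200921, minus strand: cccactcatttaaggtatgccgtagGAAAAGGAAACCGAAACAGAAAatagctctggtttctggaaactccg
Oas1a, chr5:120907526-120907570, minus strand: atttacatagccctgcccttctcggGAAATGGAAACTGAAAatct
Bst2, chr8:71537562-71537627, minus strand: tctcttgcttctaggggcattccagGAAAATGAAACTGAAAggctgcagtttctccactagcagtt
Ifit1, chr19:34640760-34640838, plus strand: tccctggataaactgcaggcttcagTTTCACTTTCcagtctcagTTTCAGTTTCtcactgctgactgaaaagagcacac
Ifit3, chr19:34583348-34583441, plus strand: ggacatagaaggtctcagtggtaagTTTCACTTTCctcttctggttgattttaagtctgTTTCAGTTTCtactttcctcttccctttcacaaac
Ifit3b, chr19:34607744-34607837, plus strand: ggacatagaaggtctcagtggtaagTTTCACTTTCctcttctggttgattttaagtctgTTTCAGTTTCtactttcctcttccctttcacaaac
Rsad2, chr12:26456538-26456597, minus strand: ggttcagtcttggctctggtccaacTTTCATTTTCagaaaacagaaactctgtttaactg

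Isg15 carried 3 overlapping cores in one run, Oas1a and Bst2 carried 2 overlapping cores each, and Ifit1 carried 2 separate cores on the opposite strand. Rsad2 carried 1 core. Ifit3 and Ifit3b, neighbouring genes on chromosome 19, had the same bases over the stretch shown. Their transcripts aligned with 81.2% identity over 95.3% of the shorter one, and those of Oas1a and Oas1g with 90.6% over 96.4%. The sources used here do not say how reads matching several genes were counted, so values of these pairs are uncertain. Parp9 (chromosome 16, 35938470 to 35972605, plus strand) and Dtx3l (35926511 to 35939151, minus strand) overlap at their ends, and without a stated strand setting their reads there cannot be told apart. The size of the differences described below was set beside the core, without a test. On day 2 the median log2 fold change against vehicle was 0.81 for the 13 genes with a core and 0.65 for the 14 without after EPAT, and 0.75 against 0.65 after the combination, while after anti-PD-1 the medians were the same to 2 decimals, at 0.69 and 0.69.

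On day 2 the set was higher than in vehicle after each of the 3 treatments, by a median of about the same size. Each library was first summarised by its mean log2 CPM over the 36 genes. The vehicle libraries of day 2 had means of 5.22, 4.53, 4.90, 5.46 and 5.36, and the EPAT libraries of that day 5.67, 6.13, 5.87, 6.15 and 5.401. The combination libraries had 5.69, 4.56, 6.80, 5.91 and 5.75, and the anti-PD-1 libraries 5.48, 5.16, 5.50 and 6.70. Of the 3 treatments the EPAT libraries were the most alike, and 4 of 5 lay above every vehicle library. So did all anti-PD-1 libraries but replicate 2 and all combination libraries but replicate 2. The anti-PD-1 and combination groups each held 1 library far above the rest. Anti-PD-1 replicate 4 was the highest of its group in 36 of the 36 genes, and so was combination replicate 3, while combination replicate 2 was the lowest of its group in 33.

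**Figure D1:**
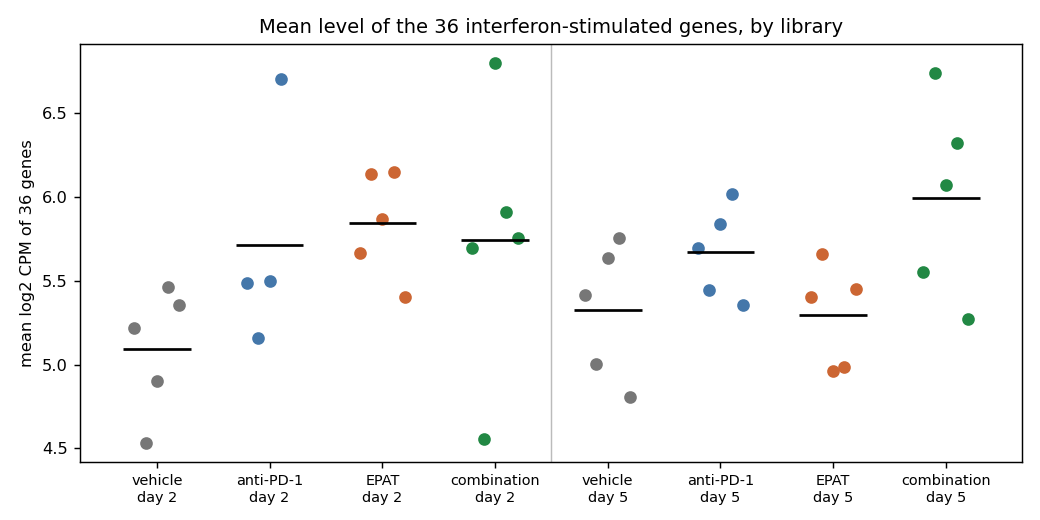
Mean log2 CPM of the 36 interferon-stimulated genes (vertical axis) in each library, by treatment and day (horizontal axis); points are libraries and bars are group means. On day 5 the EPAT libraries, 4.96 to 5.66, lie within the span of vehicle, 4.80 to 5.76, and 3 of 5 combination libraries lie above it.

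After anti-PD-1 on day 2, 35 of the 36 genes were higher than in vehicle, with a median log2 fold change of 0.73 against -0.015 over all genes tested. The changes ranged from -0.02 for Isg20, an exonuclease, to 1.17 for Oas2. In edgeR's quasi-likelihood test 22 genes of the set reached an unadjusted p under 0.05 upward, against 4.32% of all genes tested, and none passed adjustment over all genes (0.0% of all genes did), with a smallest adjusted p of 0.524. DESeq2 and limma-voom also called none, with 25 and 17 at an unadjusted p under 0.05. The libraries of the groups did not overlap for Ddx58, Dtx3l and Trim56, 3 of the 36, against 1.63% of all genes. Much of the size came from 1 library: without anti-PD-1 replicate 4 the median was 0.31 and 2 genes were at an unadjusted p under 0.05. That count was 14 without vehicle replicate 3.

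After EPAT on day 2 all 36 genes were higher than in vehicle, with a median of 0.77 against -0.02 over all genes. The range was from 0.14 for Trim56, a ubiquitin ligase of the STING pathway, to 1.11 for Oas3, a synthetase of 2-5A. In edgeR 18 genes were at an unadjusted p under 0.05 upward, against 3.34% of all genes, and none passed adjustment (0.0% of all genes), with a smallest adjusted p of 0.696. DESeq2 and limma-voom each had 23 at an unadjusted p under 0.05 and called none. The groups did not overlap for 6 genes, against 1.27% of all genes: Ifih1, Zbp1, Ifi35, Xaf1, Rtp4 and Lgals3bp. The median was 0.65 without vehicle replicate 2 and 0.63 without vehicle replicates 1 and 2, where 11 and 6 genes were at an unadjusted p under 0.05, and the count was 11 without EPAT replicate 2.

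After the combination on day 2 all 36 genes were again higher than in vehicle, with a median of 0.76 against -0.02 over all genes. Trim56 differed least, by 0.24, and Ifit3 most, by 1.33. In edgeR 22 genes were at an unadjusted p under 0.05 upward, against 6.34% of all genes, and none passed adjustment (0.0% of all genes), with a smallest adjusted p of 0.221. DESeq2 had 23 and called none, while limma-voom had 24 and called 5, Dhx58, Lgals3bp, Oas2, Trim25 and Zbp1, among 567 genes it called in all. Oas2 was the only gene of the set whose groups did not overlap, 1 of 36 against 1.94% of all genes. Without combination replicate 3 the median was 0.44 and the count at an unadjusted p under 0.05 was 6, and without replicate 2 they were 0.99 and 31. Without vehicle replicate 2 the count was 14, and without vehicle replicates 1 and 2 it was 8.

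**Figure D2:**
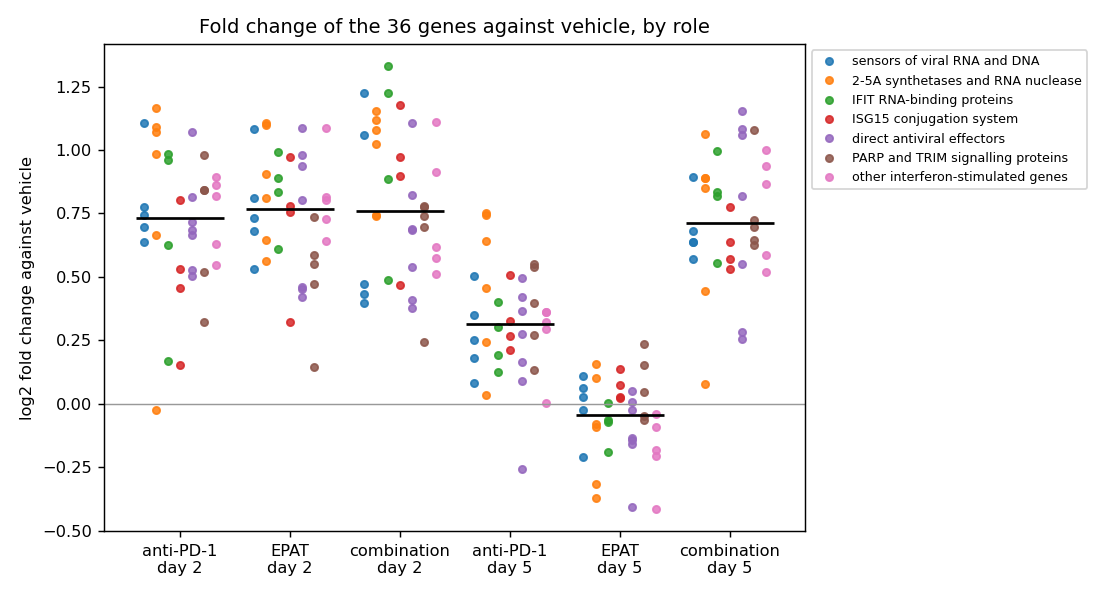
Log2 fold change against vehicle (vertical axis) of each of the 36 genes, grouped by role, in 6 comparisons: 3 treatments on day 2 and on day 5; the black line is the median over the genes shown. The day 5 EPAT values lie on both sides of 0, with a median of -0.04.

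Among the sensors of viral nucleic acid, all 5 were higher on day 2 after each treatment. They are Ifih1 (MDA5), Ddx58 (RIG-I) and Dhx58 (LGP2), which bind viral RNA, Zbp1, which binds Z-form nucleic acid, and Eif2ak2 (PKR), a kinase that stops translation. Each of the 5 was at an unadjusted p under 0.05 after anti-PD-1 and after EPAT, and 2 were after the combination. The shares of all genes, upward, were 4.32%, 3.34% and 6.34%. Ifih1 measured 59.4, 48.8, 41.3, 57.7 and 66.7 CPM in vehicle on day 2 and 94.8, 102.3, 91.0, 98.7 and 67.9 CPM after EPAT. The lowest EPAT library therefore lay just above the highest vehicle library. The log2 difference was 0.73 ± 0.28 (SE) with an unadjusted edgeR p of 0.0142. Zbp1 showed the same separation, at 68.6 to 127.2 CPM after EPAT against 27.5 to 65.5 CPM in vehicle, a log2 difference of 1.08 ± 0.38 (edgeR adjusted p = 0.697). After the combination Dhx58 was higher by 1.06 ± 0.33 and Zbp1 by 1.22 ± 0.39 on the log2 scale, with edgeR adjusted p of 0.221 and 0.227. Ddx58 lay at 79.2 to 182.8 CPM after anti-PD-1 against 56.4 to 74.8 CPM in vehicle.

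The 2-5A synthetases make the messenger that activates the nuclease RNase L. With Isg20, these 6 genes had medians of 1.03 after anti-PD-1, 0.86 after EPAT and 1.05 after the combination on day 2. Oas2 measured 10.4, 3.62, 6.11, 13.6 and 8.21 CPM in vehicle. After anti-PD-1 it measured 15.4, 12.9, 18.8 and 28.8 CPM, after EPAT 17.9, 22.3, 20.8, 16.1 and 13.5 CPM, and after the combination 15.9, 13.9, 27.9, 17.5 and 16.7 CPM. Only 1 library of anti-PD-1 and 1 of EPAT reached down into the range of vehicle, and none of the combination did. The log2 differences were 1.17 ± 0.36, 1.10 ± 0.34 and 1.12 ± 0.34, and Oas2 had the smallest unadjusted p of the set after anti-PD-1 and after EPAT. Oasl1, a catalytically inactive relative, had log2 differences of 0.98 ± 0.39, 0.91 ± 0.37 and 1.02 ± 0.37 in the same order. In the anti-PD-1 group 3 libraries of Oasl1, at 11.42 to 11.99 CPM, lay at or near the top of vehicle, at 4.995 to 11.99 CPM, and replicate 4 stood at 36.3 CPM.

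The IFIT proteins bind viral RNA and block its translation. Ifit3 measured 36.4, 27.2, 42.7, 65.2 and 60.0 CPM in vehicle on day 2, and 53.8, 46.5, 41.0 and 224.7 CPM after anti-PD-1. After EPAT it measured 65.8, 100.9, 93.3, 111.6 and 57.3 CPM, and after the combination 79.6, 22.1, 312.0, 103.5 and 65.4 CPM. The anti-PD-1 libraries other than replicate 4 lay within the span of vehicle, and the combination libraries ran from below to far above it. The log2 differences were 0.98 ± 0.51, 0.89 ± 0.48 and 1.33 ± 0.49, the last with an edgeR adjusted p of 0.288. Ifit1 had log2 differences of 0.17 ± 0.51, 0.84 ± 0.49 and 0.89 ± 0.49, none at an unadjusted p under 0.05.

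ISG15 is a ubiquitin-like protein that is attached to other proteins, by Herc6 in mice, and removed by Usp18, which also dampens the receptor. Isg15 measured 67.3, 26.9, 79.3, 103.1 and 79.7 CPM in vehicle on day 2 and 44.0, 32.7, 70.0 and 169.9 CPM after anti-PD-1. It measured 36.6, 169.5, 169.3, 247.4 and 77.5 CPM after EPAT and 120.6, 28.4, 405.9, 165.5 and 85.2 CPM after the combination. Libraries of every treated group overlapped those of vehicle, and Isg15 had the largest spread of the set, with an SD of 0.93 log2 CPM over all 39 libraries. EPAT replicate 1, the lowest of its group at 36.6 CPM, had 10.65% of its counts in Gm42418, against 2.63 to 3.18% in the others. Anti-PD-1 replicate 4, the highest of its group at 169.9 CPM, had 7.88%. The log2 differences were 0.15 ± 0.57, 0.97 ± 0.54 and 1.18 ± 0.54. Usp18 had 0.45 ± 0.41, 0.78 ± 0.39 and 0.97 ± 0.39. Trim25, the ubiquitin ligase that activates RIG-I, differed by less but varied less, with 0.53 ± 0.18, 0.32 ± 0.17 and 0.47 ± 0.17.

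The direct antiviral effectors were measured as RNA, and whether these mice make a working protein from each was not measured. Mx1, of a family of GTPases that trap viral particles, was higher by 1.07 ± 0.43 after anti-PD-1, 0.94 ± 0.41 after EPAT and 0.82 ± 0.41 after the combination on day 2. Rsad2 (viperin), which makes a chain-terminating nucleotide, had log2 differences of 0.81 ± 0.41, 0.80 ± 0.39 and 1.11 ± 0.39. For Bst2 (tetherin), which holds budding virus at the cell surface, they were 0.69 ± 0.42, 0.98 ± 0.40 and 0.69 ± 0.40. Ifitm3, which blocks viral fusion, differed by 0.50 ± 0.25, 0.45 ± 0.23 and 0.54 ± 0.23. Of these 4, Mx1 and Ifitm3 were at an unadjusted p under 0.05 after anti-PD-1, Mx1, Rsad2 and Bst2 after EPAT, and Rsad2 and Ifitm3 after the combination. The shares of all genes, upward, were 4.32%, 3.34% and 6.34%.

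The PARP and TRIM proteins include Parp9 and Dtx3l, partners that modify histones. Parp9 was higher by 0.84 ± 0.28 after anti-PD-1, 0.74 ± 0.27 after EPAT and 0.78 ± 0.27 after the combination on day 2. Dtx3l lay at 119.4 to 264.6 CPM after anti-PD-1 against 63.7 to 103.6 CPM in vehicle, a log2 difference of 0.98 ± 0.32. Lgals3bp, a secreted galectin-binding protein, lay at 180.8 to 277.4 CPM after EPAT against 115.9 to 164.3 CPM in vehicle, a difference of 0.64 ± 0.22. Ifi35 differed by 0.82 ± 0.28 in the same comparison, at 30.0 to 49.3 CPM against 13.1 to 27.1 CPM.

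**Figure D3:**
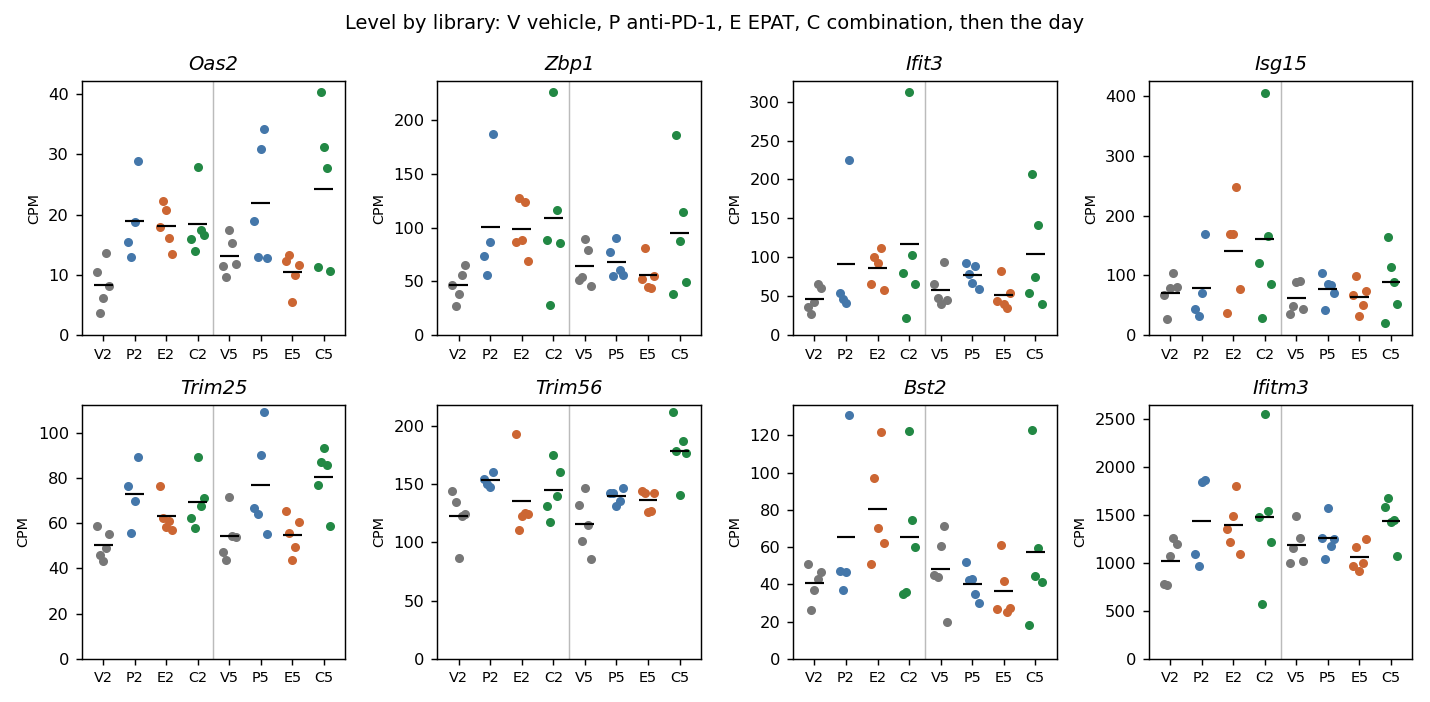
CPM (vertical axis) of 8 of the genes in each library, by group (horizontal axis: V vehicle, P anti-PD-1, E EPAT, C combination, then the day); bars are group means. Trim56 in the combination on day 5, at 140.3 to 211.9 CPM, and Oas2 after EPAT on day 2, at 13.5 to 22.3 CPM, lie mostly above vehicle. In both the lowest library lies inside the vehicle range. Single libraries lead the means of Ifit3 and Isg15.

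On day 5 the set was higher than in vehicle after the combination, higher by less after anti-PD-1, and on both sides of vehicle after EPAT. The vehicle libraries had mean log2 CPM over the 36 genes of 5.41, 5.01, 5.64, 5.76 and 4.80, and the EPAT libraries 5.401, 5.66, 4.96, 4.99 and 5.45. The anti-PD-1 libraries had 5.69, 5.44, 5.84, 6.02 and 5.35, and the combination libraries 5.55, 6.74, 6.07, 6.32 and 5.27. EPAT and vehicle covered about the same range, and 2 of the 5 combination libraries lay within it.

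After EPAT on day 5, 15 genes were higher and 21 lower than in vehicle, with a median of -0.04 against -0.01 over all genes. The differences ran from -0.42 for Ifi44 to 0.24 for Trim56. In edgeR none of the set was at an unadjusted p under 0.05 upward, against 0.664% of all genes, and none passed adjustment (0.0% of all genes), with a smallest adjusted p of 1. DESeq2, limma-voom and limma on the deposited log2 values also called none. No gene of the set had EPAT libraries all above vehicle, against 0.212% of all genes. Oas2 had a log2 difference of -0.32 ± 0.34, Bst2 of -0.41 ± 0.40 and Mx1 of -0.03 ± 0.41.

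After anti-PD-1 on day 5, 35 genes were higher, with a median of 0.31 against 0.02 over all genes, and 2 were at an unadjusted edgeR p under 0.05 upward, against 4.57% of all genes. Those were Trim25, by 0.51 ± 0.17, and Oas2, by 0.74 ± 0.34, and a count of 2 is near the share of all genes. None passed adjustment (0.0% of all genes), with a smallest edgeR adjusted p of 0.645, and DESeq2 and limma-voom called none, with 3 and 1 at an unadjusted p under 0.05. None had libraries all above vehicle, against 0.179% of all genes. Oas2 measured 18.9, 13.01, 30.8, 34.3 and 12.8 CPM after anti-PD-1 and 11.6, 9.59, 17.5, 15.3 and 11.7 CPM in vehicle, so the anti-PD-1 libraries ran from within the vehicle range to well above it. The median was 0.20 without vehicle replicate 5. The count at an unadjusted p under 0.05 was 1 without vehicle replicate 2 or 5 or anti-PD-1 replicate 3 or 4, and 6 without vehicle replicate 3.

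After the combination on day 5 all 36 genes were higher than in vehicle, with a median of 0.71 against -0.01 over all genes. The range was from 0.08 for Isg20 to 1.15 for Rsad2. In edgeR 22 genes were at an unadjusted p under 0.05 upward, against 7.21% of all genes, and none passed adjustment, against 0.0265% of all genes (4 of 15070). The smallest adjusted p in edgeR was 0.11, that of Trim56. DESeq2 called 3, Trim56, Parp14 and Ddx58, with adjusted p of 0.0136, 0.0449 and 0.0494, among 78 genes in all, and had 24 at an unadjusted p under 0.05, while limma-voom called none and had 20. Without vehicle replicate 3, edgeR called 3, Parp14, Trim25 and Trim56, among 205 genes in all. No gene had combination libraries all above vehicle, against 0.65% of all genes. Without combination replicate 2 the median was 0.52 and the count at an unadjusted p under 0.05 was 9, and that count was 13 without vehicle replicate 5.

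Trim56 measured 132.2, 100.8, 146.4, 114.7 and 85.7 CPM in vehicle on day 5 and 211.9, 178.1, 140.3, 187.3 and 176.8 CPM after the combination. All but 1 combination library lay above the highest vehicle library. The means were 115.9 ± 24.2 CPM (SD, n = 5) and 178.9 ± 25.8 CPM (SD, n = 5), and the log2 difference was 0.63 ± 0.14 (edgeR unadjusted p = 0.000109). Parp14, an ADP-ribosyltransferase, measured 197.9, 145.7, 286.3, 214.1 and 114.5 CPM in vehicle and 429.2, 516.4, 364.6, 461.4 and 250.5 CPM after the combination, a log2 difference of 1.08 ± 0.30 (edgeR adjusted p = 0.171). Only the lowest combination library fell inside the vehicle range. Ddx58 differed by 0.89 ± 0.25 and Trim25 by 0.57 ± 0.17, each with an edgeR adjusted p of 0.171.

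Rsad2 measured 47.1, 29.2, 67.5, 67.7 and 28.3 CPM in vehicle and 80.3, 178.2, 112.7, 113.0 and 48.9 CPM after the combination on day 5. The log2 difference was 1.15 ± 0.39 (edgeR adjusted p = 0.19), with 4 of 5 combination libraries above all of vehicle. Mx1 was higher by 1.06 ± 0.41. Oas2 measured 11.3, 40.3, 31.2, 27.7 and 10.7 CPM after the combination. Its replicates 1 and 5 therefore lay in the vehicle range and the other 3 well above it. Isg15, Ifit1, Bst2 and Ifitm3 had smaller log2 differences, of 0.53 ± 0.54, 0.55 ± 0.49, 0.25 ± 0.40 and 0.28 ± 0.23, and none of these 4 was at an unadjusted p under 0.05. By role, the medians on day 5 were 0.64 for the sensors, 0.87 for the 2-5A genes, 0.83 for the IFIT genes, 0.60 for the ISG15 system, 0.82 for the effectors and 0.70 for the PARP and TRIM genes. Of the PARP and TRIM genes 5 of 5 were at an unadjusted p under 0.05, against 7.21% of all genes upward.

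**Figure D4:**
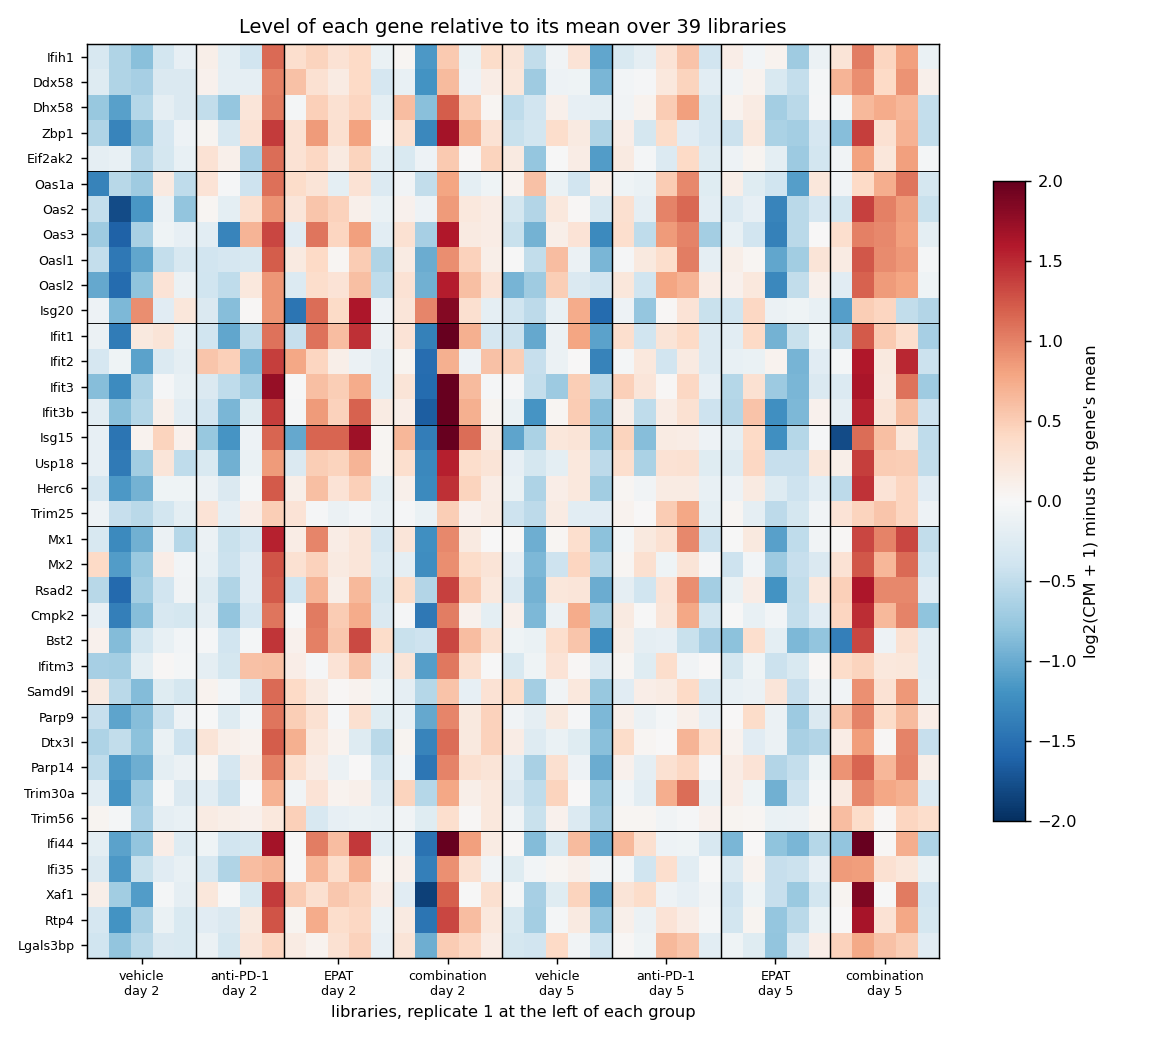
Level of each of the 36 genes (rows, by role) in each of the 39 libraries (columns, by group), as log2(CPM + 1) minus the gene's mean over all libraries. Anti-PD-1 day 2 replicate 4 and combination day 2 replicate 3 are high in nearly every row, and combination day 2 replicate 2 is low in most.

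The combination was also compared with each single treatment. Against anti-PD-1 on day 2, 19 genes were higher and 17 lower, with a median of 0.02, and edgeR found none at an unadjusted p under 0.05 upward, against 2.3% of all genes. DESeq2 found none and limma-voom 2, and without anti-PD-1 replicate 4 edgeR found 8. Against EPAT on day 2, 23 genes were higher, with a median of 0.07 and again none at an unadjusted p under 0.05 upward in edgeR, DESeq2 or limma-voom, against 3.97% of all genes. Isg15 had the largest difference from anti-PD-1, 1.02 ± 0.58, and Ifit3 the largest from EPAT, 0.44 ± 0.48.

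On day 5 the combination lay above anti-PD-1 in all 36 genes, with a median of 0.43 (0.17 without combination replicate 2 and 0.58 without replicate 5), and 6 were at an unadjusted edgeR p under 0.05 upward, against 1.45% of all genes. Trim56, at 0.35 ± 0.14, Parp14, at 0.68 ± 0.30, and Parp9, at 0.59 ± 0.27, were among them. That count was 1 without combination replicate 2, 3 without replicate 4, 11 without replicate 5 and 2 without anti-PD-1 replicate 2 or 5. Against EPAT on day 5, 35 genes were higher, with a median of 0.77, and 27 were at an unadjusted p under 0.05 upward, against 5.44% of all genes. Oas2 differed by 1.21 ± 0.34, Trim25 by 0.55 ± 0.17 and Mx2 by 1.23 ± 0.39, with edgeR adjusted p of 0.282 each. Ddx58 was the only gene of the set whose libraries did not overlap, at 96.8 to 171.5 CPM against 64.3 to 94.6 CPM, 1 of 36 against 0.929% of all genes. Without combination replicate 2 the median was 0.56 and the count 12. None of the set passed adjustment in edgeR, DESeq2 or limma-voom in these 4 comparisons, which share libraries with those against vehicle. On day 5 DESeq2 and limma-voom had 6 and 10 at an unadjusted p under 0.05 against anti-PD-1, and 27 and 26 against EPAT.

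Averaged over tumours with and without EPAT, anti-PD-1 had a median log2 effect on day 5 of 0.54, with 24 genes at an unadjusted edgeR p under 0.05 upward, against 10.7% of all genes. Trim25, at 0.53 ± 0.12, and Oas2, at 0.97 ± 0.24, each had an edgeR adjusted p of 0.147, and none of the set passed. DESeq2 called these 2 genes among 145 in all and had 25 at an unadjusted p under 0.05, and limma-voom called none and had 18. Without vehicle replicate 3 edgeR called 5 genes, Lgals3bp, Oas2, Trim25, Trim30a and Trim56, among 231 in all, and without combination replicate 5 it called Trim25, among 7 in all.

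The interaction term asks whether the combination differed from the sum of both single effects on the log2 scale. On day 2 it was negative in 34 of the 36 genes, with a median of -0.74 against 0.01 over all genes, and 5 were at an unadjusted edgeR p under 0.05 downward, against 3.34% of all genes. Ddx58 had an interaction of -0.98 ± 0.36, Ifih1 of -1.0025 ± 0.41 and Oas2 of -1.15 ± 0.49. None passed adjustment in edgeR (smallest adjusted p 0.541 for Ddx58), DESeq2 or limma-voom, with 11 and 8 at an unadjusted p under 0.05 downward in the last 2 tools. The median was -0.30 and the count 0 without anti-PD-1 replicate 4, and they were -1.11 and 25 without combination replicate 3. It was 13 and 11 without anti-PD-1 replicates 2 and 3, 11 without EPAT replicate 5, and 3 without vehicle replicate 2, EPAT replicate 2 or 4, or combination replicate 2. On day 5 the interaction was positive in 35 genes, with a median of 0.47 (0.26 without combination replicate 2). None of the set was then at an unadjusted edgeR p under 0.05 upward, against 1.22% of all genes, and the smallest adjusted p was 1.

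Between the days, the EPAT tumours were lower on day 5 than on day 2 in 35 of the 36 genes, with a median of -0.47, while vehicle tumours were higher in 31, with a median of 0.24 (0.14 to 0.38 when 1 library was left out). In vehicle none was at an unadjusted edgeR p under 0.05 upward, against 3.2% of all genes. Of the 36, 8 were at an unadjusted edgeR p under 0.05 downward after EPAT, against 3.56% of all genes. Bst2 measured 50.8, 97.2, 70.1, 121.6 and 62.2 CPM after EPAT on day 2 and 26.8, 60.9, 41.6, 25.3 and 27.2 CPM on day 5. Only 1 day 5 library, at 60.9 CPM, reached the range of day 2. The log2 difference was -1.15 ± 0.40 (edgeR adjusted p = 0.592). Ifi44 differed by -1.31 ± 0.51 and Ifi35 by -0.64 ± 0.28. The days did not overlap for 2 of the 36 genes, against 1.01% of all genes: Oas2, at 13.5 to 22.3 CPM on day 2 and 5.41 to 13.2 CPM on day 5, and Xaf1, at 85.7 to 113.3 CPM and 45.76 to 73.12 CPM. None passed adjustment in edgeR or DESeq2, which had 8 at an unadjusted p under 0.05, and limma-voom called Bst2, among 1168 genes in all, and had 12. The count of 8 was 2 without EPAT day 2 replicate 2 or 4, or day 5 replicate 3, 3 without day 5 replicate 4, 4 without day 2 replicate 3 and 5 without day 5 replicate 1.

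The change of the EPAT effect from day 2 to day 5, tested as a difference of differences, was negative in 35 genes, with a median of -0.74 against 0.01 over all genes. In edgeR 8 were at an unadjusted p under 0.05 downward, against 2.84% of all genes, and none passed adjustment in edgeR, DESeq2 or limma-voom, the last 2 with 9 and 5 at an unadjusted p under 0.05. Oas2 had the smallest unadjusted p, with a change of -1.42 ± 0.48 (edgeR adjusted p = 0.942). The count was 4 without EPAT day 2 replicate 4, 3 without vehicle day 2 replicates 1 and 2, and 5 without vehicle day 2 replicate 2 or 3, EPAT day 2 replicate 2, or EPAT day 5 replicate 3 or 4. For the combination the same change had a median of -0.07 (-0.28 to 0.29 when 1 library was left out, the highest without combination day 2 replicate 3), and for anti-PD-1 of -0.44 (-0.62 to 0.013, the highest without anti-PD-1 day 2 replicate 4).

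Across all 39 libraries the genes of the set varied together. Between pairs of them the median Pearson r of log2 CPM was 0.75 over 630 pairs, of which 1 was negative. Rtp4, Herc6 and Mx1 followed the mean of the other 35 most closely, with r of 0.97, 0.96 and 0.94, and 27 of the 36 had r of at least 0.8. Trim56 (0.46), Isg20 (0.46) and Oas1a (0.63) followed it least. The median r of a gene with the mean of the others was 0.87, and 0.85 with group means removed, so the genes also varied together among libraries of one treatment. Libraries differ in tissue content and depth, which all genes of a library share, and the values are descriptions without a test.

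Outside the set, the genes with the closest pattern to the set's mean over the 39 libraries were Phf11d (r = 0.946), Rnf213 (0.940), Irf7 (0.934), Gbp9 (0.934), Stat2 (0.925), Trim30d (0.913), Parp11 (0.913), Gbp7 (0.909), Tor3a (0.904) and Ifi208 (0.903). Irf9, a subunit of the complex, had r = 0.899, Ifng 0.671, Ifnar2 0.498, Socs1, which inhibits the kinases, 0.432, and Ifnar1 0.334.

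Transcripts of type I interferons themselves were nearly undetected at this depth. Of 20 listed type I and type III interferon genes 16 had a row in the table, and 14 of these, with Ifnb1 among them, had no count in any library. The other two, Ifne and Ifnz, had 16 counts in all, and none of the 16 passed the filter. A count of 0 allows up to 3 counts in a library, or 0.193 to 0.358 CPM depending on its depth, for counting error only. Ifng, the gene of interferon-gamma, was measured, with medians on day 2 of 1.85 CPM in vehicle, 6.00 after anti-PD-1, 3.85 after EPAT and 6.57 after the combination. Its log2 differences from vehicle were 1.29 ± 0.68, 0.79 ± 0.65 and 1.68 ± 0.65, the last with an edgeR adjusted p of 0.333.

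All 7 genes of the receptor and its transducers were higher after the combination on day 5, with a median log2 difference of 0.66. All 7 were at an unadjusted edgeR p under 0.05, against 7.21% of all genes upward. Ifnar1 was higher by 0.68 ± 0.22, Ifnar2 by 0.56 ± 0.21, Stat2 by 0.85 ± 0.27 and Irf9 by 0.66 ± 0.20, with a smallest edgeR adjusted p of 0.179. On day 2 the medians were 0.51 after anti-PD-1, 0.28 after EPAT and 0.55 after the combination, with all 7 higher each time. After EPAT on day 5, 5 of 7 were higher, with a median of 0.07. Irf7, the transcription factor that amplifies interferon production, differed on day 2 by 1.11 ± 0.37 after EPAT and 1.19 ± 0.37 after the combination, and on day 5 by 0.87 ± 0.37 after the combination.

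Of 12 measured genes that sense nucleic acids upstream of interferon, 10 were higher after each treatment on day 2, with medians of 0.34 after anti-PD-1, 0.38 after EPAT and 0.52 after the combination. After the combination on day 5 Ikbke, a kinase that phosphorylates IRF3 and IRF7, differed by 0.96 ± 0.25. Among 7 measured negative regulators, 6, 5 and 7 were higher on day 2, with Samhd1 at 1.13 ± 0.33 and Socs1 at 0.85 ± 0.48 after the combination. A list of 28 measured interferon-stimulated genes outside the set had 26, 26 and 27 higher on day 2, with medians of 0.76, 0.52 and 0.76 after anti-PD-1, EPAT and the combination. Ifi204, a DNA sensor, was at 1.10 ± 0.24 after the combination (edgeR adjusted p = 0.0745). The interferon-gamma list, with 19 measured genes, had all 19 higher on day 2, with medians of 0.91, 0.75 and 0.89, and 10 of 19 higher after EPAT on day 5, with a median of 0.02. After anti-PD-1 on day 5, 17 were higher, with a median of 0.205. After the combination on day 5 all 19 were, with a median of 0.88, and against anti-PD-1 that day all 19 again, with a median of 0.606. Cd274, which encodes PD-L1, was at 1.67 ± 0.46 after the combination on day 2. No gene of these lists passed adjustment in edgeR in the 6 comparisons with vehicle. At an unadjusted p under 0.05, higher after the combination on day 2, were 4 of 7 receptor and transducer genes, 4 of 12 sensing genes, 2 of 7 negative regulators, 19 of 28 genes of the outside list and 12 of 19 of the interferon-gamma list. The share over all genes was 6.34%.

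Markers of some other cells moved with the set, and those of others did not. Over the 39 libraries the set's mean had r = 0.78 with the 6 NK cell markers, 0.77 with the 7 markers of inflammatory monocytes, 0.52 with the 11 T cell markers, 0.48 with conventional and 0.37 with plasmacytoid dendritic cell markers, and 0.35 with macrophage markers. It was 0.26 for neutrophils, 0.22 for skeletal muscle, 0.02 for lung epithelium, -0.17 for adipocytes and -0.27 for keratinocytes. For fibroblasts it was -0.01, for B and plasma cells -0.02, for endothelial cells -0.04, for the melanocytic lineage -0.05 and for lymph node stroma -0.06. Only markers above the filter entered r. These were 3 of 5 for B and plasma cells, 3 of 12 for the melanocytic lineage and 1 of 5 for lymph node stroma. Single markers did not all follow the set as their list did. Ncr1 of the NK cell list had r = 0.50, Ly6c2 of the monocyte list 0.86 and Cd8a of the T cell list 0.47. How far the r of a list follows the number of cells was not tested. The plasmacytoid list shares Irf8 with the interferon-gamma list. Its summed CPM on day 2 had a median of 1030 in vehicle and 988.5, 888.0 and 948.8 after anti-PD-1, EPAT and the combination. Conventional dendritic cell markers summed to a median of 30.3 CPM in the same vehicle libraries. The plasmacytoid list also holds Tcf4, Cox6a2 and Ly6d, and which genes make up its sum was not examined. The sum therefore does not tell whether these cells rose or fell. Summed monocyte markers were 417.9 to 547.0 CPM in vehicle on day 2, 645.1 to 1207 after anti-PD-1, 525.3 to 897.1 after EPAT and 584.8 to 1005 after the combination, with all 7 markers above the filter. On day 5 they were 482.0 to 792.9 CPM in vehicle, 540.7 to 1107 after anti-PD-1, 517.7 to 644.9 after EPAT and 587.5 to 961.9 after the combination. Summed NK markers on day 2 were 33.97 to 62.86 CPM in vehicle, 67.4 to 92.4 after anti-PD-1, 57.8 to 106.5 after EPAT and 16.6 to 117.1 after the combination, where the lowest was replicate 2, also the lowest in T cell markers, at 15.3 CPM. On day 5 all 11 T cell markers were above vehicle after anti-PD-1 and after the combination, with medians of 0.99 and 1.06 on the log2 scale. Of them, 4 and 5 were at an unadjusted edgeR p under 0.05, against 4.57% and 7.21% of all genes upward. Their sums were 90.98 to 212.9 CPM in vehicle, 81.09 to 616.6 after anti-PD-1, 84.11 to 277.1 after EPAT and 155.2 to 459.0 after the combination. Summed macrophage markers on day 5 were 2471 to 4975 CPM in vehicle, 2138 to 12830 after anti-PD-1, 1781 to 4410 after EPAT and 3389 to 9082 after the combination. The part of the NK cell, monocyte, T cell and macrophage markers in the differences of the set was not tested. Skeletal muscle markers on day 2 were 9.002 to 525.6 CPM in vehicle, 5.49 to 3452 after anti-PD-1, 8.93 to 3618 after EPAT and 17.8 to 789.8 after the combination. With a muscle score as a term in the model, 12 genes of the set were at an unadjusted edgeR p under 0.05 upward after anti-PD-1 on day 2 and 10 after EPAT.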

How the data were processed

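Bulk tumour RNA was made into QuantSeq 3′ libraries, which count tags near the poly(A) tail, per the labels' protocols, so counts carry no gene length term. The authors deposited raw counts for each Ensembl gene, and log2 CPM for 16095 of them in a second table. The deposited log2 values differed from log2(count + 0.5) by 1 constant per library. Per the submitters' processing notes, bcl2fastq, STAR, featureCounts and limma were used with builds mm10 and GRCm38. Versions, annotation, strand setting and the handling of reads matching several genes are not stated in the sources used here. The labels' extraction protocol speaks of tumours isolated on day 4, and the groups follow each sample's own time point. Sample titles hold a pair of numbers, of which the first follows treatment and day with few exceptions. Anti-PD-1 day 5 replicate 5, EPAT day 5 replicate 1 and EPAT day 2 replicate 5 share it with the other day of their treatment. Whether their time points were exchanged cannot be told from the labels. No label gives a sequencing batch.

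Counts were tested with edgeR 4.0.16 (R 4.3.3). The filter asked for 10 counts in a group's number of libraries and a total of 15. Counts were scaled by TMM and fitted with 1 mean per group over all 39 libraries (31 residual degrees of freedom, common biological coefficient of variation 0.323). The quasi-likelihood F test was 2-sided, with Benjamini-Hochberg adjustment over all 15070 genes and a threshold of 0.05, in 23 comparisons. Each SE was derived from the fold change and its F value (their ratio, with F under a square root). Log2 CPM used a prior count of 2. Groups do not overlap when every library of one lies above every library of the other. Shares of all genes at an unadjusted p are those of the main edgeR fit, and none is given for other tools and settings. Other settings were RLE scaling, no filter, DESeq2 1.42.0 and limma 3.58.1 (voom with quality weights, and trend on the deposited log2 CPM). Further fits used only the libraries compared, left out Gm42418, or had a lung or a muscle score as a term. The last settings were the second number in the sample title as a block (added after the data were seen), and leaving out each library. The procedure was tested on simulated data. Gene names and places were read from GENCODE on GRCm38, where 37607 identifiers matched. No pair of libraries agreed within counting noise.

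The members, their roles, the other lists and the comparisons were chosen with earlier results of these data known. Named in the text were Isg15, Ifit1, Ifit3, Mx1, Oas2, Oasl1, Rsad2, Usp18, Ifih1, Bst2, Ifitm3 and Lgals3bp, up to 4 members per comparison by smallest p, Ifnb1, Ifnar1, Ifnar2, Stat2, Irf9, Irf7, Socs1 and Ifng, up to 3 genes of each other list by p, and the 10 genes most like the set. Members at the end of a range, those whose groups did not overlap and those called by another tool are named as well. So are a few markers of the cell type lists. One gene that this rule names is not reported here.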

Additional observations from a re-analysis of the deposited data

Results flagged for a closer look

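In 13 series of values (the mean over the 36 genes and 12 of its genes, in log2 CPM), each group of libraries was checked for a single value far from the rest by Dixon's test, 104 groups of values in all. Chance flags about 1 in 20 groups, and 6 values stood apart. In the anti-PD-1 group of day 2, replicate 4 was the highest for Ifit3, at 7.81 against 5.36 to 5.75 in the other libraries, for Mx1, at 5.84 against 3.80 to 4.14, and for Oasl1, at 5.19 against 3.53 to 3.60. Vehicle day 2 replicate 2 was the lowest for Ifit1, at 4.39 against 5.67 to 6.08. EPAT day 2 replicate 5 was the lowest for Ifih1, at 6.09 against 6.51 to 6.68. Combination day 2 replicate 2 was the lowest for Lgals3bp, at 6.68 against 7.80 to 8.17.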

How the results depend on the processing

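The second number in the sample titles runs from 1 to 5 and is unique within each group, and no label says that it pairs tumours. Of 133 pairs of libraries with the same number in different groups, 44 had deviations from their group means correlated above 0.1 (median r 0.011, against -0.006 for different numbers), and 13 of 39 libraries lay closest to their own number, so it was not taken as a pairing. With that number as a replicate block, chosen after seeing the data, 0 genes of the set were called in any comparison, and vehicle between the days had 1 at an unadjusted p under 0.05 upward. Over all genes the block gave 3 calls in place of 4 for the combination on day 5, 0 in place of 3 for the combination against anti-PD-1 on day 5, 3 in place of 2 for the combination between days and 0 in place of 2 for EPAT averaged on day 5. Across the alternatives, counts of called genes of the set kept to within 1.5 times in 545 cases and moved in 8, and counts at an unadjusted p under 0.05 did so in 288 and 75. All 553 recomputed medians moved by less than the spread between replicates. That spread, with SDs of the set's mean of 0.275 to 0.799 log2 CPM within groups, is about as wide as the differences themselves. The rule therefore does not show that the medians are stable, and some changed sign, as given below. Single named genes kept their side of the threshold in 718 cases, crossed it in 10 and changed direction in none. The cause of each change was not tested.

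Genes called by adjusted p numbered 0 in edgeR in all 23 comparisons. With limma-voom they numbered 5 for the combination on day 2, 1 for EPAT between the days and 1 for anti-PD-1 averaged on day 2, of 567, 1168 and 192 genes called in all. With DESeq2 they numbered 3 for the combination on day 5 and 2 for anti-PD-1 averaged on day 5, of 78 and 145. Leaving out 1 library gave 0 to 3 for the combination on day 5 and 0 to 5 for anti-PD-1 averaged on day 5, with 205 and 231 called in all at the upper ends, both without vehicle replicate 3.

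Genes at an unadjusted p under 0.05 upward on day 2 numbered, for anti-PD-1, 13 by limma on the deposited log2 values, 12 with a muscle score as a term and 10 without vehicle replicates 1 and 2, and 2 to 26 when 1 library was left out. For EPAT they numbered 30 with only the libraries compared, 10 with the muscle score, 6 without that vehicle pair and 11 to 22 with 1 library left out. For the combination they numbered 13 by limma on the deposited log2 values, 8 without that pair and 6 to 31. On day 5 they numbered 1 by limma-voom and 1 to 6 for anti-PD-1, and 9 to 28 for the combination. Between treatments, the combination against anti-PD-1 gave 2 by limma-voom and 0 to 8 on day 2, and 10 by limma-voom and 1 to 11 on day 5, and against EPAT on day 5 it gave 12 to 31. Vehicle between the days gave 2 by limma on the deposited log2 values and 0 to 2, and the interaction on day 5 gave 1 with only the libraries compared and 0 to 2.

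Downward, EPAT between the days gave 21 with only the libraries compared and 2 to 11 with 1 left out. The interaction on day 2 gave 8 without a filter, 11 by DESeq2, 8 by limma-voom, 3 with only the libraries compared, 2 with the muscle score, 3 without the vehicle pair and 0 to 25. The change of the EPAT effect between days gave 5 by limma-voom, 21 with only the libraries compared, 5 with the muscle score, 3 without the pair and 4 to 12. Medians changed sign in 25 cases, all within 6 comparisons: EPAT against vehicle on day 5, the combination against either single treatment on day 2 (down to -0.33 and -0.30 without combination replicate 3), anti-PD-1 between the days (up to 0.24 without anti-PD-1 day 2 replicate 4), and the change between days of the combination effect and of the anti-PD-1 effect (from -0.44 to 0.013 without anti-PD-1 day 2 replicate 4). Depth limits Oas1a, Mx2 and Ifit3b most, and the interferon genes could not be tested at this depth.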
